A study of Mus musculus with 2 samples.

Results

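The nuclear-encoded subunits of the respiratory chain were taken by symbol. A gene was included when its symbol began with Ndufa, Ndufb, Ndufc, Ndufs or Ndufv (complex I), Uqcr (complex III), Cox4 to Cox8 (complex IV, cytochrome c oxidase) or Atp5 (complex V, the ATP synthase). Symbols ending in "-ps" and the Ndufaf assembly factors were left out. This gave 81 of the 32285 genes listed, with 38 members in complex I, 8 in complex III, 18 in complex IV and 17 in complex V. UMIs (unique molecular identifiers, each standing for 1 captured RNA molecule) were found for 77 of them, and Cox4i2, Cox7b2, Cox8c and Ndufa4l2 had 0 UMIs in both libraries, which with 444503 and 308932 UMIs outside globin, mitochondrial and rRNA-overlapping genes allows up to 6.75 and 9.71 UMIs per 1e6 of them.

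The respiratory chain sits in the inner mitochondrial membrane. Complexes I, III and IV pass electrons to oxygen and pump protons, and the ATP synthase uses the proton gradient to make ATP. A few hydrophobic subunits of these complexes are encoded by mitochondrial DNA (genes with the prefix mt-), and all others are encoded in the nucleus, made in the cytosol and imported. Red cell precursors need mitochondria for heme synthesis, and reticulocytes clear them as they mature into red cells.

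The series holds 1 group of 2 single-cell RNA libraries. Their source was whole blood, the mice were wild type, and all had undergone burn/tenotomy, a burn combined with a cut tendon. The blood was sorted on the microfluidic iChip and barcoded on the 10x Chromium; the cells are labelled "cMPCs and blood cells", and the abbreviation is not spelled out. The labels do not say whether the libraries come from separate mice, so their spread may be technical, and no uninjured group was analysed here. Every comparison below is therefore between classes of barcodes within the same libraries.

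Replicate 1 held 1008 barcodes and 3967318 UMIs, and replicate 2 held 849 barcodes and 3329292 UMIs, with 0 barcode sequences in common. Globin genes (Hba- and Hbb-) took 73.5% and 75.1% of the UMIs and mt- genes 9.22% and 8.97%. The UMIs outside globin genes, mt- genes and 3 loci that overlap ribosomal RNA, called other UMIs here, were 11.2% and 9.28% of all. Members had 3778 and 3384 UMIs, or 0.850% and 1.10% of the other UMIs.

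Barcodes were put in 5 classes by the share of their UMIs from globin and mt- genes, and no member is among those genes. With an mt- share of at most 20%, barcodes were globin-rich (globin share of at least 90%; 173 and 162 barcodes), globin-intermediate (40 to 90%; 303 and 225) or globin-poor (under 40%; 92 and 134). Barcodes with an mt- share of 20 to 80% (74 and 43) were called mt-intermediate, and those above 80% (366 and 285) mt-rich. Red cell markers other than globin made up 133598 and 131832 of 1e6 other UMIs in globin-rich barcodes and 1022 and 10259 in globin-poor ones. The globin-poor class was of different make-up in the 2 libraries. In replicate 1, 59 of its 92 barcodes had most marker UMIs from the leukocyte list, and in replicate 2, 96 of 134 had most from the red cell list.

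Globin-rich barcodes held the most member UMIs per 1e6 other UMIs, and fewer than globin-poor barcodes when the same UMIs were set against all UMIs. On the scale of other UMIs the summed member level was 20776 and 21039 in globin-rich barcodes of replicates 1 and 2, 12791 and 14132 in globin-intermediate, 2458 and 4085 in globin-poor, 3039 and 4573 in mt-intermediate and 10664 and 9105 in mt-rich barcodes. Both libraries gave the order globin-rich, globin-intermediate, mt-rich, with no overlap between these classes, while the ranges of the globin-poor and mt-intermediate classes overlapped. With the rRNA-overlapping loci counted among the other UMIs, the means were 12866 in globin-rich, 6102 in globin-intermediate and 8369 in mt-rich barcodes, so the order of the last 2 classes was reversed. The globin-rich mean was 6.39 times the globin-poor mean, 8.45 times in replicate 1 and 5.15 times in replicate 2.

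On the scale of all UMIs, globin and mt- included, the level was 853 and 824 per 1e6 in globin-rich barcodes, 1896 and 2231 in globin-poor and 450 and 432 in mt-rich barcodes. The globin-rich mean was then 0.406 times the globin-poor mean, and globin alone took 93.0% and 93.7% of the UMIs of the globin-rich class. No scale in these data is free of the change in make-up between classes, and each level below is given with its own scale.

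**Figure D1:**
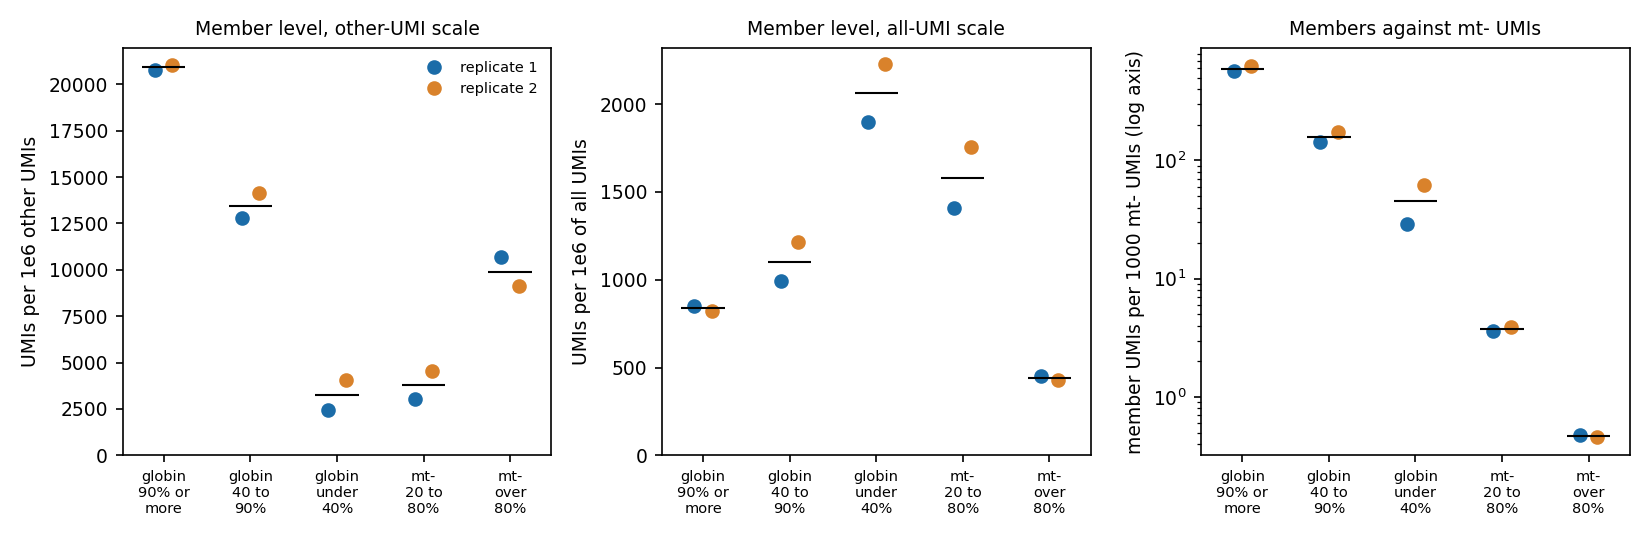
Summed level of the 81 members in each barcode class. The panels give UMIs per 1e6 other UMIs, UMIs per 1e6 of all UMIs, and member UMIs per 1000 mt- UMIs on a log axis; points are the 2 libraries and bars their mean. Globin-rich barcodes are highest against other UMIs (20776 and 21039) and below globin-poor barcodes against all UMIs (853 and 824, against 1896 and 2231).

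Set against mt- UMIs, the nuclear-encoded members fell in 1 order in both libraries. There were 573 and 626 member UMIs per 1000 mt- UMIs in globin-rich barcodes, 142 and 174 in globin-intermediate, 29.0 and 61.4 in globin-poor, 3.59 and 3.87 in mt-intermediate and 0.477 and 0.460 in mt-rich barcodes. The classes did not overlap, but they were partly defined by mt- UMIs, so this order is a description. The mt- transcripts themselves were led by mt-Co1, the catalytic subunit of cytochrome c oxidase, in globin-rich barcodes (41.0% and 42.3% of mt- UMIs). In mt-rich barcodes mt-Co3, another subunit of the same enzyme, led with 22.6% and 23.0%, and mt-Co1 took 10.7% and 9.71%.

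The rise along globin share was seen in finer steps, chosen after the classes had been examined. On the scale of other UMIs, the member level was 5217 and 7301 at a globin share of 40 to 60%, 10082 and 11066 at 60 to 80%, 15534 and 17834 at 80 to 90%, and 21081 and 21408 at 90 to 95%. Above 95% it was lower again, at 17565 and 18890. Over the same steps the mt- level went the other way, from 199659 and 116549 per 1e6 other UMIs at 40 to 60% to 36831 and 33425 at 90 to 95%. Barcodes differed in depth as well, with medians of 2746 and 1759 UMIs in the 40 to 60% step and 10601 and 11251 in the 90 to 95% step; the part of depth in the trend was not tested. Against all UMIs there was no such rise, with 839 and 1216 per 1e6 at 40 to 60% and 914 and 927 at 90 to 95%.

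**Figure D2:**
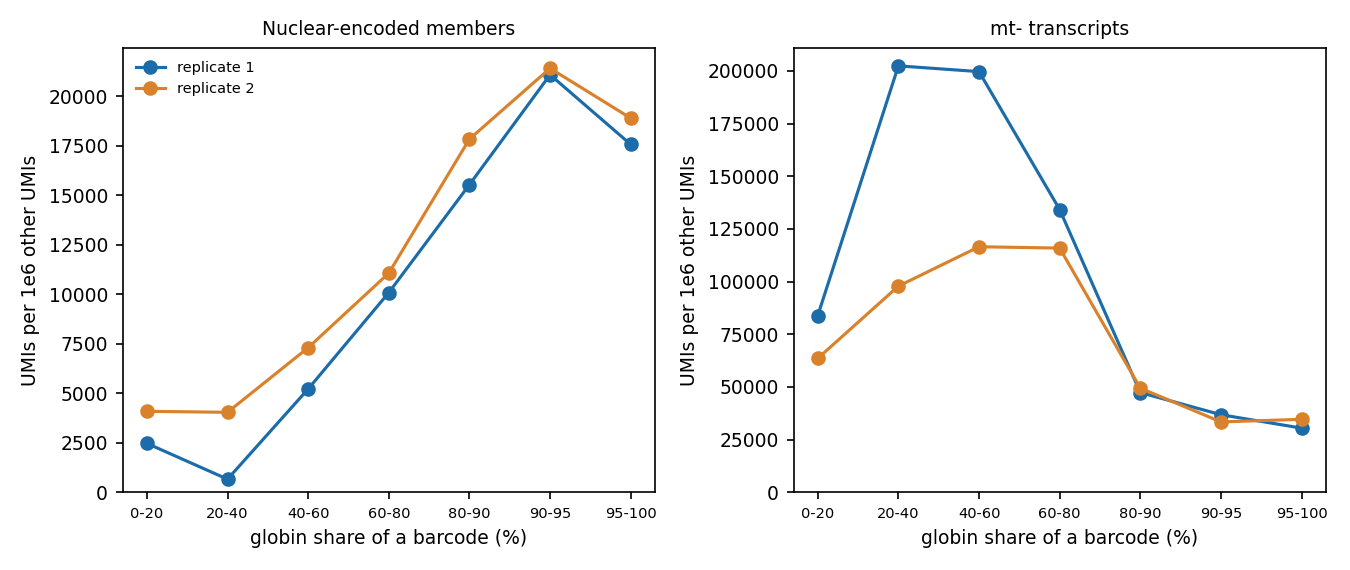
Member level (left) and mt- level (right), both in UMIs per 1e6 other UMIs, by the globin share of the barcodes, for barcodes with an mt- share of at most 20%. Lines join the steps within a library. From 40 to 60% up to 90 to 95% globin the members go from 5217 and 7301 to 21081 and 21408, a rise that is absent on the scale of all UMIs, while the mt- level falls in both libraries; the 20 to 40% step of replicate 1 holds 5 barcodes and 1 member UMI.

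At least 1 member UMI was present in 96.5% (95% interval 92.6 to 98.7%) and 93.2% (88.2 to 96.6%) of globin-rich barcodes, at median depths of 10585 and 11126 UMIs. In mt-rich barcodes, with medians of 765 and 799 UMIs, the shares were 25.7% (21.3 to 30.5%) and 27.0% (21.9 to 32.6%). The intervals are exact binomial (Clopper-Pearson) and, as everywhere below, cover counting error only. When each barcode was thinned to 500 UMIs, the mean shares were 29.3% in globin-rich, 39.5% in globin-intermediate, 37.7% in globin-poor, 43.4% in mt-intermediate and 16.4% in mt-rich barcodes. These genes are expressed in nearly all cells, so no cell type could serve as a measure of free RNA, and its part in the shares was not tested.

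Comparing globin-rich with globin-poor barcodes relative to other UMIs, the largest increases were those of Cox7b, Cox6b2, Cox6c and Cox6a1 of cytochrome c oxidase, followed by Atp5l of the ATP synthase and Uqcrh of complex III. The complex I subunit Ndufs4 and the c ring subunit Atp5g2 were lower. Of 38 members that passed the filter on low counts, 27 were higher, 2 were lower and 9 were not called (edgeR's quasi-likelihood test, Benjamini-Hochberg adjusted over all 2655 genes tested, threshold 0.05). Of all genes tested, 12.9% were called higher and 74.1% lower. The median log2 fold change was 2.74 for the 38 members and -5.65 for all genes. The latter is near the fitted value of a gene with 0 UMIs in globin-rich barcodes (Ndufs4, -6.00), so it is not read as a size. Setting the 3 members at 0 UMIs in globin-rich barcodes to their bound left the member median at 2.74. These 3 had the lowest values, so the median could not move, and the other genes were not bounded. The filter keeps a gene through any class where it is high, so the 38 are not a fair sample of the 81. Over all 81 members, 39 had the higher level in globin-rich barcodes in both libraries, 26 the lower level in both, 10 were mixed and 6 had 0 UMIs in both classes. These directions were not counted for all genes, so they do not show whether the members differ from other genes.

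These calls hold for the scale of other UMIs. With library sizes of all UMIs, 1 member was called higher (Cox7b, log2 fold change 1.53, edgeR adjusted p = 0.0466) and 14 lower. Of all 2655 genes tested, 34 were called higher and 2421 lower on that scale. The medians were -1.23 for members and -8.53 for all genes, the latter again near the fitted value of Ndufs4 (-8.65). On either scale 37 of the 38 members lay above the median of all genes. A change of library sizes shifts all genes in the same direction, so the second count adds no separate support.

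Within complex IV, 8 of 11 tested members were higher relative to other UMIs and 0 were lower. Cox7b, a small membrane-spanning subunit, had levels of 1146 and 948 per 1e6 other UMIs in globin-rich barcodes, 705 and 835 in globin-intermediate and 19.9 and 24.8 in globin-poor ones. The globin-rich libraries were far above the globin-poor ones, and the log2 fold change was 5.47 ± 0.71 (SE; edgeR adjusted p = 1.83e-12). Cox6c, a nuclear-encoded subunit with 662 UMIs in all, had 2330 and 2484 per 1e6 other UMIs in globin-rich barcodes and 54.9 and 132 in globin-poor ones (log2 fold change 4.73, SE 0.73, adjusted p = 1.13e-09). Cox6a1, the broadly expressed form of subunit VIa, went from 34.9 and 99.0 in globin-poor to 1497 and 1450 in globin-rich barcodes, a log2 fold change of 4.52. Cox7a2 and Cox8a, the broadly expressed forms of 2 more small subunits, had log2 fold changes of 3.97 and 3.66. On the scale of all UMIs, Cox6c, Cox6a1 and Cox7a2 had log2 fold changes of 0.77, 0.57 and 0.00, which were not called, and Cox8a one of -0.30.

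Cox4i1 and Cox5b, subunits that lie against the mitochondrially encoded core of the enzyme, were not called, nor was Cox7a2l, which takes part in joining complexes III and IV. Cox4i1 had 221 and 244 UMIs per 1e6 other UMIs in globin-rich barcodes and 74.8 and 149 in globin-poor ones (log2 fold change 1.12, adjusted p = 0.0906). Cox7a2l had 52.1 and 28.7 against 59.8 and 49.5, so the libraries of the 2 classes overlapped (log2 fold change -0.42, adjusted p = 0.673).

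Within the ATP synthase, 8 of 12 tested members were higher relative to other UMIs and 1 was lower. Atp5l, subunit g of the membrane part and the member with most UMIs in all (718), had 2343 and 2370 per 1e6 other UMIs in globin-rich barcodes, 1582 and 1716 in globin-intermediate and 84.8 and 190 in globin-poor ones. Its log2 fold change was 4.16 (SE 0.70, adjusted p = 3.01e-08) and 0.19 on the scale of all UMIs, where it was not called. Atp5b, the catalytic beta subunit, had 1146 and 1120 in globin-rich and 59.8 and 116 in globin-poor barcodes (log2 fold change 3.73, adjusted p = 1.44e-08). Atp5h, of the peripheral stalk that holds the head still, had 1497 and 1120 against 110 and 99.0 (log2 fold change 3.62). Atp5mpl, a small membrane subunit, and Atp5e, the epsilon subunit of the central stalk, had log2 fold changes of 3.79 and 2.80. Atp5mpl, Atp5b, Atp5h and Atp5e had log2 fold changes of -0.19, -0.25, -0.40 and -1.19 on the scale of all UMIs, and none was called.

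The 3 tested members of complex III, Uqcrh, Uqcr11 and Uqcr10, were all called higher relative to other UMIs. Uqcrh, the hinge subunit near cytochrome c1, had 1497 and 1608 per 1e6 other UMIs in globin-rich barcodes and 64.8 and 124 in globin-poor ones, with a log2 fold change of 4.06 (0.09 on the scale of all UMIs, not called). The 5 others, among them the core subunits Uqcrc1 and Uqcrc2 and the Rieske iron-sulfur protein Uqcrfs1, did not pass the filter. Of these, Uqcrc2, Uqcrq and Uqcrb were higher per 1e6 other UMIs in globin-rich than in globin-poor barcodes in both libraries. Their means were 89.3 against 42.3, 107.5 against 67.9 and 61.9 against 36.4. Uqcrc1 (4 UMIs against 11) had means of 26.7 against 35.6, and Uqcrfs1 13.7 against 16.5, with the libraries differing in direction. On the scale of all UMIs the means of all 5 were lower in globin-rich barcodes.

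Of 12 tested complex I members, 8 were higher relative to other UMIs, 1 was lower and 3 were not called. The largest increases were in Ndufa1 and Ndufa3, small accessory subunits of the membrane arm. Ndufa1 had 651 and 704 per 1e6 other UMIs in globin-rich barcodes and 39.9 and 41.3 in globin-poor ones (log2 fold change 3.99, adjusted p = 2.08e-09), and Ndufa3 547 and 718 against 29.9 and 66.0 (3.75). Against all UMIs these changes were 0.01 and -0.21, and neither was called. Ndufa4, which keeps its complex I name and is now placed in complex IV, was among the 8.

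**Figure D3:**
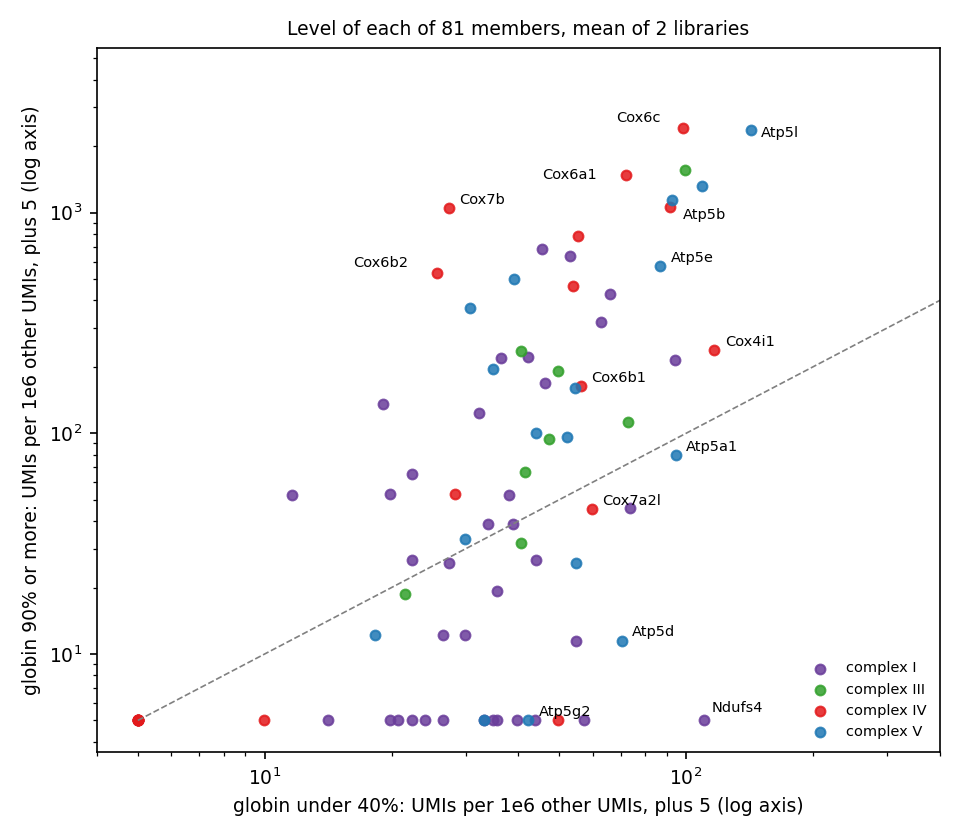
Level of each of the 81 members in globin-poor (horizontal) and globin-rich barcodes (vertical), in UMIs per 1e6 other UMIs plus 5 on log axes, mean of 2 libraries, coloured by complex; the dashed line marks equal levels. Points along the bottom, Ndufs4 and Atp5g2 among them, had 0 UMIs in globin-rich barcodes. On the scale of all UMIs 68 members would lie below the line and 7 above it.

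The members that were lower had few or no UMIs in barcodes with globin. The fitted log2 fold changes were -6.00 for Ndufs4 and -4.49 for Atp5g2, beside a median of -5.65 for all genes, of which 74.1% were called lower. Both members had 0 UMIs in globin-rich barcodes, so these fitted values do not measure the size of the change. Ndufs4, an accessory subunit of the electron-input arm of complex I, had 0 UMIs in globin-rich and globin-intermediate barcodes of both libraries and 94.7 and 116 UMIs per 1e6 other UMIs (19 and 14 UMIs) in globin-poor ones. Against the limit that a count of 0 allows over the globin-rich class (3 UMIs), it was at least 5.01-fold higher in globin-poor barcodes, and the test called it (adjusted p = 7.44e-04). Atp5g2, 1 of 3 genes for the c ring that turns in the membrane, had 0 UMIs in globin-rich and 11 in globin-poor barcodes, at least 1.67-fold higher there (adjusted p = 0.0363). This call was lost with TMM factors (adjusted p = 0.120), without the low-count filter (0.0903), with other class limits (0.0939) and without the richest barcode of each class and library (0.0721).

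In all, 17 members had 0 UMIs in globin-rich barcodes and at least 1 in globin-poor ones, and 11 of these also had 0 in globin-intermediate barcodes. The share of all genes with this pattern was not counted. Since 74.1% of all genes tested were called lower in globin-rich barcodes, the count is not read as particular to the members. The 3 c ring genes of the ATP synthase had 1 UMI in globin-rich, 2 in globin-intermediate and 23 in globin-poor barcodes. The 5 small membrane subunits of the same complex had 514, 464 and 81. These groupings by structure were made after the data had been examined.

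Members lower in globin-rich barcodes had the longer median gene span. Genomic spans in GENCODE M21 had a median of 5733 bases for the 39 members higher in both libraries and 9535 bases for the 26 lower in both, with Ndufs4 the longest of the latter at 100464 bases (mm10, chr13:114287795-114388258). A list of 5 nuclear-retained RNAs, among them Malat1 and Neat1, had 49042 and 33161 UMIs per 1e6 other UMIs in globin-poor barcodes and 39.1 and 14.4 in globin-rich ones, with Xist, Kcnq1ot1 and Meg3 at 0 in the latter. The sources used here do not give whether reads in introns were counted, and the part of nuclear RNA in these values was not tested.

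Shares of the member UMIs do not depend on the denominator. In globin-rich barcodes complex I made up 16.1% and 17.5% of the member UMIs, complex III 10.5% and 11.2%, complex IV 38.8% and 39.9% and complex V 34.6% and 31.4%. In globin-poor barcodes complex I took 36.5% and 40.4%, and complex IV 20.1% and 21.2%, so both libraries of each class lay apart for these complexes. Complexes III (11.6% and 11.3%) and V (31.8% and 27.1%) were closer to their globin-rich shares. The 5 members with most UMIs in all (Atp5l, Cox6c, Uqcrh, Atp5h and Cox6a1) held 44.1% and 42.9% of member UMIs in globin-rich, 43.5% and 43.3% in globin-intermediate, and 14.2% and 15.8% in globin-poor barcodes. In each library, 7 members made up 50% of the member UMIs of globin-rich barcodes, whereas 19 and 20 were needed in globin-poor ones.

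Pairs of subunits of the same complex had different ratios in the classes. In the F1 head of the ATP synthase, alpha and beta subunits alternate in equal number. Atp5b (beta) and Atp5a1 (alpha) had 88 and 6 UMIs in globin-rich barcodes of replicate 1 and 78 and 5 in replicate 2, so that beta made up 93.8% of both (95% interval 89.2 to 96.9%). In globin-poor barcodes the UMIs were 12 and 16 in replicate 1 and 14 and 12 in replicate 2, a beta share of 48.1% (34.3 to 62.2%). Atp5a1 itself was near level on the scale of other UMIs, with 78.1 and 71.8 per 1e6 in globin-rich and 79.8 and 99.0 in globin-poor barcodes, and it did not pass the filter.

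Cox6c, set against Cox4i1, made up 91.2% (87.9 to 93.8%) of the pair in globin-rich and 45.0% (32.1 to 58.4%) in globin-poor barcodes. Atp5h, against Atp5o (the other stalk subunit that touches the head), made up 98.0% (94.9 to 99.4%; 193 and 4 UMIs) of the pair in globin-rich barcodes, and had 34 UMIs against 8 in globin-poor ones (interval of the share 65.9 to 91.4%). In each of these pairs the intervals of globin-rich and globin-poor barcodes did not overlap, while globin-intermediate barcodes stayed with the globin-rich ones (90.1%, 93.7% and 98.0%). A UMI counts a molecule whatever its length, but how well each gene is captured is not known, so only the change of a pair between classes is read here. Pairs were chosen with earlier results of these data known.

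**Figure D4:**
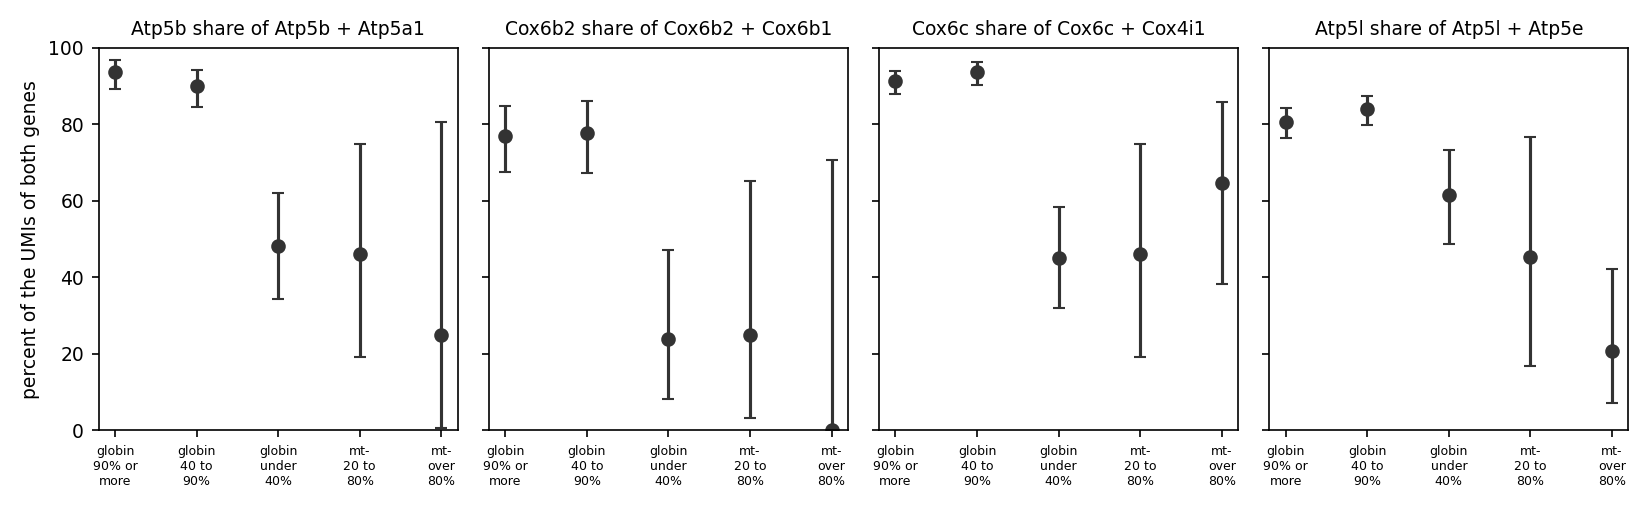
Share of the first gene in the UMIs of each pair, in percent, by barcode class; points pool both libraries and bars are exact 95% binomial intervals, which cover counting error only. In the first 3 pairs the first gene takes 93.8%, 77.0% and 91.2% in globin-rich barcodes and 48.1%, 23.8% and 45.0% in globin-poor ones; the last pair falls from 80.6% in globin-rich to 20.8% in mt-rich barcodes.

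Cox6b2, best known as the testis form of subunit VIb, was the main form in barcodes with globin. Relative to other UMIs it had 482 and 574 per 1e6 in globin-rich barcodes, 316 and 359 in globin-intermediate ones and 0 and 41.3 in globin-poor ones. All 5 of its UMIs in globin-poor barcodes came from the barcodes of replicate 2 with mainly red cell markers. Its log2 fold change was 4.90 (SE 0.72, edgeR adjusted p = 2.45e-10) and 1.09 on the scale of all UMIs, where it was not called. The broadly expressed form Cox6b1 rose from 44.9 and 57.8 in globin-poor to 130 and 187 in globin-rich barcodes (log2 fold change 1.57, adjusted p = 0.0467). Cox6b2 made up 77.0% of the UMIs of both genes in globin-rich (67.5 to 84.8%; 77 and 23 UMIs), 77.6% in globin-intermediate (67.3 to 86.0%) and 23.8% in globin-poor barcodes (8.22 to 47.2%; 5 and 16 UMIs).

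The bases before these 2 genes, both on chromosome 7, are shown because their ratio differed between classes, though both were called higher. Those of Uqcrh, Uqcr11 and Ndufa11 are shown because these are members called higher that hold a searched motif. Each stretch is the 70 bases on the gene's strand that end at the start of the gene in RefSeq or, where GENCODE M21 starts it earlier, before that start. Letters are from RefSeq's table for GRCm38.p6, and capitals mark a searched motif within the stretch. The Cox6b1 stretch ends 37 bases before the RefSeq start and leaves out a CCGGAA motif on the opposite strand at -27. That of Uqcr11 ends 9 bases before it and leaves out a GCGCATGC motif on the opposite strand at -4.
Cox6b2: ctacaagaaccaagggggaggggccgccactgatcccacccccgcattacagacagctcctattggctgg
Cox6b1: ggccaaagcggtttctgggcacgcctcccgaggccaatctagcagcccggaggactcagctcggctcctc
Uqcrh: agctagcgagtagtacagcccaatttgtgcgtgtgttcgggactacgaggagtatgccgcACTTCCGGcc
Uqcr11: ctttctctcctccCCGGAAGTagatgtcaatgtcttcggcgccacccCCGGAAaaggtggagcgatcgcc
Ndufa11: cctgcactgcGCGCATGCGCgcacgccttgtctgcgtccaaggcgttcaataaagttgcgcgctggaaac
These stretches lie at chr7:4753095-4753164, chr7:30626152-30626221, chr4:116075072-116075141 and chr10:80406831-80406900 on the minus strand, and at chr17:56717692-56717761 on the plus strand. The motifs were the core of NRF1 sites (GCGCATGC, and the shorter TGCGCA), of ETS or GABP sites (CCGGAAGT, and the shorter CCGGAA, which it contains) and of YY1 sites (AAGATGGC). These factors are known regulators of respiratory chain genes.

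Promoter windows of 300 bases (250 before to 50 after the start) were found for 65 of the 81 members, 70 windows in all, and were searched on both strands. GCGCATGC was in 12.9% of member windows and 2.71% of all 32851 windows, TGCGCA in 22.9% and 7.76%, and AAGATGGC in 12.9% and 2.75%. CCGGAA was in 35.7% of member windows and 14.9% of all, and CCGGAAGT in 7.14% and 3.89%. The 26 windows of members called higher in globin-rich barcodes held GCGCATGC in 19.2%, TGCGCA in 7.69%, CCGGAAGT in 15.4%, CCGGAA in 46.2% and AAGATGGC in 11.5%. The 44 windows of the other members held them in 9.09%, 31.8%, 2.27%, 29.5% and 13.6%, so the longer and the shorter NRF1 motif differed in opposite directions. These shares describe letters in a window and were not tested.

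Between globin-rich and globin-intermediate barcodes no gene was called in the main fit. Relative to other UMIs, the summed member level was 1.55 times higher in globin-rich barcodes, and the 38 tested members had a median log2 fold change of 0.61, against -0.03 for all genes. The share called was 0% among all 2655 genes in either direction, with 82 genes and 3 members at an unadjusted p under 0.05 (edgeR's quasi-likelihood test). DESeq2 called 19 genes and 0 members, and gave no adjusted p for 27 of the members. In edgeR, 87 genes were called lower with library sizes of all UMIs, 2 with TMM factors and 2 among barcodes with at least 100 genes, with 0 members each time. Other class limits called 1 gene higher, which was a member, and 6 lower. The median turned to -0.40 on the scale of all UMIs and to -0.079 with TMM factors, so no direction is given for the members as a group.

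In mt-rich barcodes, which held 262 member UMIs in all, 5 of the 38 tested members were higher than in globin-poor barcodes relative to other UMIs, and 0 were lower (edgeR's quasi-likelihood test, Benjamini-Hochberg adjusted). Of all genes, 7.38% were called higher and 3.99% lower. The median log2 fold change was 2.06 for members and -0.81 for all genes. The filter also keeps genes that are high in the mt-rich class itself, as Cox7a2l was, so the tested members are not a fair sample here either. Without the filter the medians were 1.30 and -1.45. On the scale of all UMIs, with the filter, the medians were -1.75 and -4.66, with 0 members called higher and 17 lower. Of all 2655 genes, 19 were called higher and 2342 lower on that scale. Of the 5, 3 belong to the ATP synthase, and the calls rest on 6 to 19 UMIs each in mt-rich barcodes.

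Atp5e, the epsilon subunit, led the mt-rich class in both libraries, with 12 and 7 UMIs. It had 895 and 536 per 1e6 other UMIs there and 64.8 and 99.0 in globin-poor barcodes, and the log2 fold change was 3.14 with an SE of 0.70 (adjusted p = 2.31e-04). Atp5k, subunit e of the membrane part, had 224 and 383 against 34.9 and 16.5 (log2 fold change 3.38, adjusted p = 0.00775). Atp5j2, subunit f, had 74.6 and 383 against 9.97 and 49.5 (2.99, adjusted p = 0.0499). Ndufb11, a complex I membrane subunit, had 6 and 1 UMIs, or 447 and 76.5 per 1e6 other UMIs, against 6 and 4 UMIs in the larger globin-poor sums (3.02, adjusted p = 0.0365), and Cox7a2l had 447 and 230 against 59.8 and 49.5 (2.59, adjusted p = 0.0486). The libraries of the classes did not overlap for any of the 5, and all 5 turned to negative log2 fold changes, none of them called, on the scale of all UMIs. Only Atp5k and Atp5e were still called with TMM factors, with DESeq2, without the low-count filter and without the library as a block, and none was among barcodes with at least 100 genes.

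The mt-rich class differed from globin-rich barcodes in which members it held. Atp5l and Atp5e had 345 and 83 UMIs in globin-rich barcodes, an Atp5l share of 80.6% (76.5 to 84.2%), and 5 and 19 in mt-rich barcodes, a share of 20.8% (7.13 to 42.2%). The c ring genes had 1 UMI in globin-rich barcodes and 16 in mt-rich ones (9 and 7). Cox6b2 and Ndufa1, among the members with the largest increases in globin-rich barcodes, had 0 UMIs in mt-rich ones, which at 13410 and 13070 other UMIs allows up to 224 and 230 per 1e6. Globin took 0.617% and 0.530% of the UMIs of mt-rich barcodes, and red cell markers other than globin had 17 and 16 UMIs there.

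Of the members that are tissue-restricted forms, Cox6b2 alone was common, with 150 UMIs. Cox6a2 and Cox8b, the forms of heart and skeletal muscle, had 3 and 2 UMIs, all in mt-rich barcodes, and Cox7a1, also a muscle form, had 2, both in globin-poor barcodes. Muscle markers, a list of 11 genes chosen after these UMIs were seen, had 3 and 2 UMIs in mt-rich barcodes, from Mb and Myl2, and Acta1, Ckm and 7 others were at 0 there. The gene Cox6a2 lies within the gene Itgad in GENCODE M21, so its reads may not be separable from those of Itgad.

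Other genes of the pathway mostly had too few UMIs to be tested, and their calls stand beside 12.9% of all genes called higher and 74.1% called lower. The median log2 fold change over all genes was -5.65, which lies near fitted values of genes with 0 UMIs and is not read as a size. Between globin-rich and globin-poor barcodes, relative to other UMIs, 0 of 4 complex II genes and 0 of 2 genes of cytochrome c and its partner passed the filter. Of 33 assembly factors 2 were tested, of which Cox17, a copper chaperone for complex IV, was higher (367 ± 51.8 against 64.6 ± 13.7 per 1e6 other UMIs; SD, n = 2; log2 fold change 2.51) and Cox16 was lower. Cox16 had 0 UMIs in globin-rich and 52 in globin-poor barcodes. Of 11 regulators 2 were tested, and both were lower, Nrf1 at -2.92 and Yy1 at -4.08, which is above the median of all genes. Of 13 citric acid cycle genes 2 were tested and 0 called, and of 13 protein import genes 3 were tested and 1, Tomm6, was lower.

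Atpif1, which blocks ATP hydrolysis by the ATP synthase, had 1511 ± 56.6 UMIs per 1e6 other UMIs in globin-rich and 77.8 ± 18.4 in globin-poor barcodes (SD, n = 2; log2 fold change 4.27, edgeR adjusted p = 3.05e-09). The nucleotide carrier Slc25a4, tested with it among 7 genes of the inhibitor, carrier and porin list, had 0 UMIs in globin-rich and 22 in globin-poor barcodes and was called lower. Atpif1 was also the gene most like the summed members over the 10 class sums of both libraries, with a Pearson r of 0.81 among 23 pathway genes with at least 20 UMIs, followed by Cox17 at 0.59 and Tomm22 at 0.26. The sums share their libraries and their denominators, and r is given as a description.

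The member level of globin-poor barcodes differed with their markers in replicate 2, while the 2 largest groups of replicate 1 were near level. In replicate 2, 16 barcodes with mostly mesenchymal or mesothelial markers had 416 of the 495 member UMIs of the class, and their level of 4791 per 1e6 other UMIs was above that of the 96 barcodes with mostly red cell markers (2896). The 2 richest barcodes alone held 130 and 129 member UMIs, or 52.3% of the class. In replicate 1, 59 barcodes with mostly leukocyte markers had a level of 2477 and 18 with mostly mesenchymal or mesothelial markers one of 2489. Without the richest barcode of each class and library, 28 members were called higher and 1 lower in globin-rich against globin-poor barcodes.

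Member UMIs were also set against depth barcode by barcode. In globin-rich barcodes Spearman's rho between member UMIs and other UMIs was 0.80 in both libraries (n = 173 and 162 barcodes), and that between member and mt- UMIs was 0.48 and 0.55. In mt-rich barcodes rho was 0.27 and 0.32 with other UMIs and 0.18 and 0.30 with mt- UMIs (n = 366 and 285). The points share their library and the depth of each barcode, so these values are descriptions.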

How the data were processed

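Per the labels, whole blood was sorted on the iChip and barcoded on the 10x Chromium. The authors deposited, for each library, a matrix of raw UMI counts (genes by barcodes, without normalization, per the file headers and the values). Cell Ranger 7.1.0 (file headers), Seurat 5 and mm10 are named in the submitters' processing notes, which leave the role of Seurat unsaid. The rule for calling barcodes, any removal of doublets and the use of strand in counting are not given in the sources used here. No doublets were called, and no barcode was removed.

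UMIs were summed per class and library, 10 sums in all, and fitted together in edgeR 4.0.16 (R 4.3.3; glmQLFit and glmQLFTest, filterByExpr, library size of the other UMIs without further scaling). The library was a block because every class comes from the same 2 libraries. The fit had 4 residual degrees of freedom, and the spread was shared across genes almost wholly. P-values were Benjamini-Hochberg adjusted over all genes, with a threshold of 0.05. The test gives no SE, so each SE printed is the absolute log2 fold change divided by the square root of the F statistic. The steps were run on simulated counts, drawn with less spread than the fit found (common dispersion 0.127) and with fewer changed genes than were called. That run therefore does not give the error rate of the calls here. Alternatives were other library sizes, TMM, DESeq2 1.42.0, no filter, no block, each library left out, barcodes with at least 100 genes, other class limits and the richest barcode left out.

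Genes were named by rule: per test up to 12 higher and 8 lower called members with 1 sign in both libraries, the 12 members with most UMIs, and tissue-restricted forms; others are examples named after their values were seen. Members, lists and pairs were chosen with earlier results of these data known. All 81 gene IDs matched GENCODE M21 (mm10), which gave coordinates and spans. Reads shared with pseudogenes or overlapping genes (Cox6c and Vps13b, for example) could not be told apart. Limits for counts of 0 take 3 UMIs. Columns of values not used numbered 0.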

Additional observations from a re-analysis of the deposited data

Results flagged for a closer look

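Ndufb1-ps, a symbol left out because it ends in "-ps", had 36 UMIs in both libraries together, where 3 is the limit that a count of 0 allows. There were 19 in replicate 1 and 17 in replicate 2. Of these, 24 lay in globin-poor, 5 in globin-rich, 3 in globin-intermediate, 1 in mt-intermediate and 3 in mt-rich barcodes. Whether reads of a related gene were counted under this symbol was not tested.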

How the results depend on the processing

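The scale mattered most. With library sizes of all UMIs, the comparison of globin-rich with globin-poor barcodes called 1 member higher and 14 lower (median log2 fold change -1.23), that of globin-rich with globin-intermediate barcodes had a median of -0.40, and that of mt-rich with globin-poor barcodes called 0 higher and 17 lower (median -1.75). Of all 2655 genes, the first comparison called 34 higher and 2421 lower, and the last 19 higher and 2342 lower. On that scale Atp5mpl (-0.19), Ndufa3 (-0.21), Atp5b (-0.25), Cox8a (-0.30), Atp5h (-0.40) and Atp5e (-1.19) turned to negative log2 fold changes in the first comparison, and Atp5k (-0.44), Atp5e (-0.71), Ndufb11 (-0.81), Atp5j2 (-0.72) and Cox7a2l (-1.29) in the last. Summed levels per 1e6 of all UMIs were 838 in globin-rich, 1104 in globin-intermediate, 2064 in globin-poor, 1581 in mt-intermediate and 441 in mt-rich barcodes. With the rRNA-overlapping loci among the other UMIs the levels were 12866 in globin-rich, 6102 in globin-intermediate and 8369 in mt-rich barcodes, which reversed the order of the last 2.

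For globin-rich against globin-poor barcodes, members called lower numbered 1 with TMM factors, 1 without a filter, 0 with other class limits (where Ndufs4 did not pass the filter) and 1 without the richest barcodes, and the median was 0.66 without a filter, where 77 members entered. For globin-rich against globin-intermediate barcodes, 1 member was called higher with other class limits. The median there was 1.04 with the rRNA-overlapping loci, -0.079 with TMM factors, 0.31 without a filter, 0.69 with at least 100 genes and 1.28 with other class limits. For mt-rich against globin-poor barcodes, members called higher numbered 2 with TMM factors, 2 with DESeq2 (median 1.02), 2 without a filter, 0 with at least 100 genes, 3 with other class limits and 8 without the richest barcodes.

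Without the replicate block, the 3 comparisons called 25 higher and 2 lower, 0, and 2 higher members. The library pairs the classes by construction. With 1 library left out no test was possible, and the medians were 1.81 to 3.38, 0.56 to 0.66 and 1.18 to 2.57; Cox6b2 went from 3.74 without replicate 1 to 8.42 without replicate 2, where globin-poor barcodes held 0 of its UMIs, so the latter is no measure of its size.

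Barcodes with at least 100 genes gave levels per 1e6 other UMIs of 21927 (globin-rich) and 11341 (mt-rich), other class limits gave 19086, 8803 (globin-intermediate) and 8400, and leaving out the richest barcodes gave 20566 (globin-rich). Member UMIs per 1000 mt- UMIs were 644 in globin-rich, 4.22 in mt-intermediate and 1.18 in mt-rich barcodes with at least 100 genes, and 471, 7.92 and 0.520 with other class limits, which gave 80.2 in globin-intermediate ones. Shares of barcodes with a member UMI were 98.9%, 95.7%, 66.6% and 72.9% in globin-rich, globin-intermediate, mt-intermediate and mt-rich barcodes with at least 100 genes. Other class limits gave 81.6%, 71.8% and 27.9% in the last 3. Thinning gave 29.3%, 39.5%, 37.7%, 43.4% and 16.4% over the 5 classes. The cause of these differences was not tested.

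The main limits are depth and number. Mt-rich barcodes held medians of 27 and 30 other UMIs, 26 members had fewer than 20 UMIs in all, and both libraries belong to 1 group.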
